A study of Mus musculus with 2 samples.

Results

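The 35 genes described here encode the enzymes that build cholesterol, the proteins that control those enzymes, and the main enzymes that build and modify fatty acids. They were listed by gene symbol, with no threshold on expression but with earlier results of these data known, as 18 sterol enzyme genes, 6 regulators and 11 fatty acid genes. All 35 were found among the 32285 genes counted. Their transcripts were counted in nuclei from the SVZ (subventricular zone) of mice, a germinal tissue along the lateral ventricle from which new neurons and oligodendrocytes still arise in young pups. The control library came from healthy pups. The MIP library came from pups given a modeled intestinal perforation. Pups were divided between the groups on postnatal day 5, and the SVZ was dissected and snap frozen 48 h later, on postnatal day 7. The sources used here do not give the strain, the sex or how many animals went into a library.

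Cholesterol is made from acetyl-CoA through mevalonate, the isoprenoids, squalene and lanosterol, and fatty acids are made from the same acetyl-CoA through malonyl-CoA. The brain makes its own cholesterol because lipoproteins of the blood do not cross the blood-brain barrier. Astrocytes supply much of it to neurons, and the oligodendrocyte lineage needs large amounts for myelin. When membranes of the endoplasmic reticulum are poor in sterol, the escort protein Scap carries the transcription factors encoded by Srebf1 and Srebf2 to the Golgi, where they are cut and released to the nucleus. Srebf2 acts mainly on sterol genes and Srebf1 mainly on fatty acid genes, while Insig1 and Insig2 hold Scap back when sterol is plentiful.

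Each group was 1 library, so no difference below has a replicate check and no test was made. The control library held 16964 barcodes and 146730970 unique molecular identifiers (UMIs, each standing for 1 captured transcript), and the MIP library 12366 barcodes and 100823376 UMIs. After filtering, 14579 control and 10940 MIP nuclei were grouped into clusters without the lipid genes, and clusters were named from marker genes, so that "astroglia-like" means resemblance only. Of the classes, 9 had 100 or more nuclei in both libraries and were compared. The libraries also differed in sex: Xist, expressed from the inactive X chromosome of females, had 200418 control and 118 MIP UMIs, and genes of the Y chromosome had 36 and 39461. Treatment and sex therefore cannot be told apart. Median depth per nucleus was lower in the MIP library in each class. It was 15197 and 11659.5 UMIs in excitatory neuron-like nuclei, the deepest class, 3587.5 and 2445 in neuroblast-like nuclei and 3103.5 and 2662 in microglia-like nuclei. Unnamed clusters took 42.1% of control and 29.7% of MIP nuclei, of which low-depth clusters made up 24.1% and 6.65% of all nuclei. The libraries shared 115 barcodes, 0.678% of the control and 0.93% of the MIP barcodes. Levels are given as UMIs of a gene or group per 1000000 UMIs of the class in that library (CPM). Ratios are log2 of MIP over control, each with an exact 95% interval that covers counting error only, not the spread between animals.

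Promoter windows are shown for 6 members whose levels in several classes are described below. They are Hmgcs1, Mvd and Msmo1 of the sterol enzymes, Insig1 of the regulators, and Acsl3 and Elovl5 of the fatty acid genes. Each window runs from 250 bases before to 50 bases after the start of the gene, 5′ to 3′ on the strand of the gene, as given by RefSeq for GRCm38.p6. Capitals mark the SREBP site TCACNCCAC and the NF-Y box CCAAT, each searched on both strands, where the NF-Y box reads ATTGG on the reverse strand.
Hmgcs1 (chr13:119690101-119690400, plus strand): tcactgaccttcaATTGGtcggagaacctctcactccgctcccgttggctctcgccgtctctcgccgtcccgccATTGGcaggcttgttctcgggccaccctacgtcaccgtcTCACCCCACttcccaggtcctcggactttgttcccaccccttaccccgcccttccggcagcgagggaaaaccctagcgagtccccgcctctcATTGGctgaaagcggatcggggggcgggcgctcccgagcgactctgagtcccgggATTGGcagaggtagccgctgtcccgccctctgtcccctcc
Mvd (chr8:122443373-122443672, minus strand): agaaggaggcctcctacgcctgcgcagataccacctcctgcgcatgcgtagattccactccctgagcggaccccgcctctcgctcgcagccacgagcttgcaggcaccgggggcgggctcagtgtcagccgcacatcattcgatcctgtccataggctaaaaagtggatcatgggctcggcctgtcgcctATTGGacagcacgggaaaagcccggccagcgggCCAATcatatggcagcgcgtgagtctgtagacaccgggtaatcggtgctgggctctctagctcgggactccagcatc
Msmo1 (chr8:64733529-64733828, minus strand): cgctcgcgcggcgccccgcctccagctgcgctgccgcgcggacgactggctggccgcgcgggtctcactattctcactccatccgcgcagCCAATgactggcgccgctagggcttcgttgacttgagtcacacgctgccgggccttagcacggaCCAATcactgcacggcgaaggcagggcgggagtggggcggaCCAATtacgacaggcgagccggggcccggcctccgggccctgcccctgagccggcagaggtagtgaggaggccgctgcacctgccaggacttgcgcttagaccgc
Insig1 (chr5:28071162-28071461, plus strand): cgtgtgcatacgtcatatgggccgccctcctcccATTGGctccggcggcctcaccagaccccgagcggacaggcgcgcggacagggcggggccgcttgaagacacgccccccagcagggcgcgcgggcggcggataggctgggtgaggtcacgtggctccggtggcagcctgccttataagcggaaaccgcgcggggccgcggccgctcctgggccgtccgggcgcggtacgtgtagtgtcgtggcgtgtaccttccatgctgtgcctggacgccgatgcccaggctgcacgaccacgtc
Acsl3 (chr1:78657575-78657874, plus strand): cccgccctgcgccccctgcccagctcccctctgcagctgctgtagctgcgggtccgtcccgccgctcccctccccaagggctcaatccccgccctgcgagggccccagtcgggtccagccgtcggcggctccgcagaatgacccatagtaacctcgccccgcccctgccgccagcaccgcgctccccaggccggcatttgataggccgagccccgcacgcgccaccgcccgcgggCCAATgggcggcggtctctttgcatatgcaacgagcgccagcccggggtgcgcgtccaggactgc
Elovl5 (chr9:77917115-77917414, plus strand): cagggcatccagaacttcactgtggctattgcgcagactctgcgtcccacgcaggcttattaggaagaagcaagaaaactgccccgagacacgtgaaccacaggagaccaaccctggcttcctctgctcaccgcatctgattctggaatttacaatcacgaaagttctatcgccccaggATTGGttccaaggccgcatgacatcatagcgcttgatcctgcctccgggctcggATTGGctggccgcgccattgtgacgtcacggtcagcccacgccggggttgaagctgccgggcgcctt
The SREBP site was found in the window of Hmgcs1 alone among the members with a window, 137 bases before its start, and in those of 1.44% of all 27025 genes. Members and genes are counted once here, whatever their number of windows. An NF-Y box was found in the windows of 14 of 15 sterol enzyme genes, 4 of 5 regulators and 5 of 8 fatty acid genes, and in those of 41.1% of all genes. Hmgcs1 held 4 such boxes, Msmo1 3, Mvd and Elovl5 2 each, and Insig1 and Acsl3 1 each. The GC box GGGCGG, searched on both strands without capitals here, was found for 14 of 15 sterol enzyme genes, 5 of 5 regulators and 4 of 8 fatty acid genes, against 38.2% of all genes. The E-box CACGTG was found for 3, 2 and 1 of them and for 8.09% of all genes. None of these motifs holds another within its letters, though neighbouring matches can share bases. A match describes the letters of a window. It is neither a bound site nor a cause of the values below, and a missing match says nothing of the factor. For Scd1, Scd2, Fads1, Fdft1, Fdps, Sqle and Stard4 no window was used.

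Among the 9 named classes of the control library, transcripts of both pathways were most abundant in astroglia-like nuclei. The low-depth clusters, which have no name, had 1639 CPM of sterol enzyme UMIs and are not compared further. The 18 sterol enzyme genes summed to 1155 CPM in astroglia-like nuclei, followed by 773 in oligodendrocyte precursor-like, 668 in differentiating oligodendrocyte-like and 647 in cycling progenitor-like nuclei. The intervals of the last 2 overlapped. The lowest level was 498, in spiny projection neuron-like nuclei, the projection neurons of the striatum. The 11 fatty acid genes ran from 1599 in astroglia-like to 459 in spiny projection neuron-like nuclei. The 6 regulators had their highest sum in astroglia-like nuclei too, at 319, and their lowest in interneuron-like nuclei, at 162. Of single members, 15 of 18 sterol enzyme genes, 8 of 11 fatty acid genes and 4 of 6 regulators had their highest control level in astroglia-like nuclei. The share of all genes with their highest level there was not counted, so these numbers do not set the members apart from other genes. Of those sterol enzyme genes, only Hmgcs1, Tm7sf2, Msmo1, Nsdhl and Hsd17b7 had an interval clear of that of the second class. The intervals of Fasn, Srebf2 and Stard4 overlapped that of the second class as well.

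**Figure D1:**
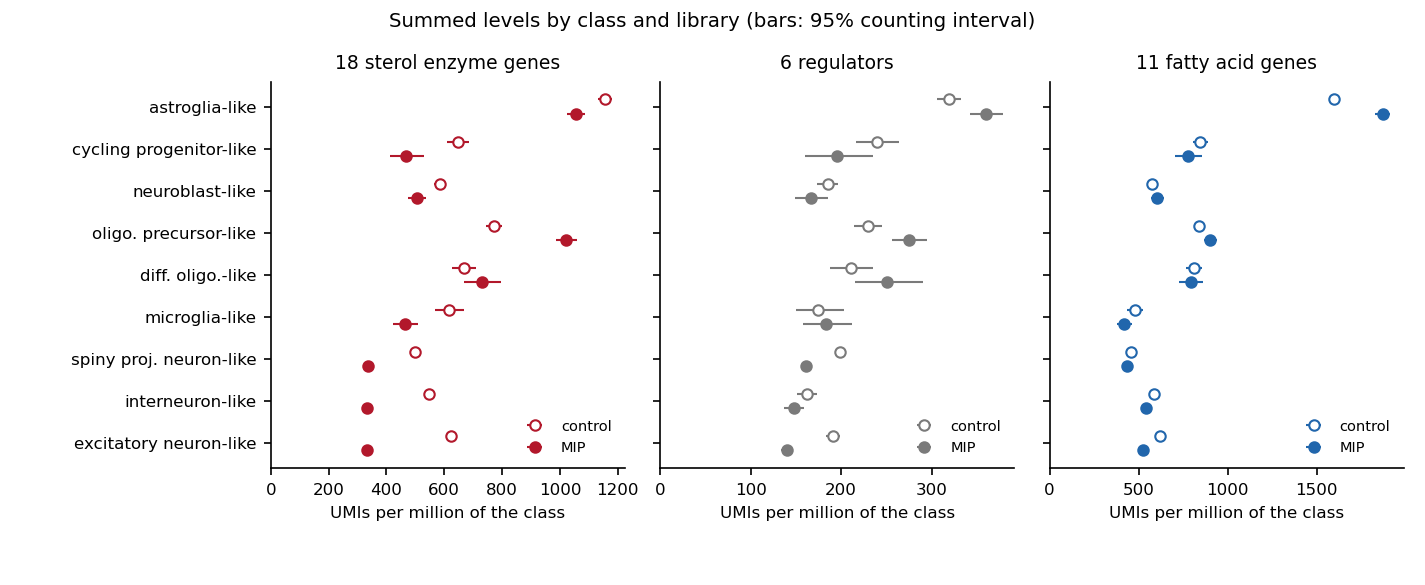
Summed level of the 18 sterol enzyme genes, the 6 regulators and the 11 fatty acid genes (x axes, CPM) in 9 marker-named classes (y axis), with open circles for the control and filled circles for the MIP library and bars for the 95% counting interval. Sterol sums of the 3 neuron classes sit lower in MIP, at 334 to 336 against 498 to 625 in the control, and that of oligodendrocyte precursor-like nuclei sits higher, at 1022 against 773.

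Single members differed in how strongly they favoured astroglia-like nuclei. Acss2, which makes acetyl-CoA from acetate, was at 124 CPM there and 39.05 in the next class, differentiating oligodendrocyte-like nuclei. Fads2, a desaturase of polyunsaturated fatty acids, was 10.02-fold higher in astroglia-like nuclei than in microglia-like nuclei, its lowest class. Srebf1 was 9.39-fold higher in astroglia-like than in excitatory neuron-like nuclei, 36.6 against 3.89. Other members were spread evenly, and Cyp51, Scap and Insig2 differed 1.86-fold, 1.51-fold and 1.86-fold between their highest and lowest class. The exceptions to the astroglial maximum were Fdps and Insig2 in microglia-like nuclei, Ebp, Acly and Elovl5 in cycling progenitor-like nuclei, Acat2 in differentiating oligodendrocyte-like nuclei, Elovl6 in oligodendrocyte precursor-like nuclei and Scap in spiny projection neuron-like nuclei. For each of these 8 the interval overlapped that of the second class.

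Sterol enzyme transcripts were lower in MIP in the 3 neuron classes. Their sum was 625 CPM in control and 334 in MIP excitatory neuron-like nuclei, a log2 ratio of -0.90 (95% interval -0.96 to -0.85). Interneuron-like nuclei had 547 and 334, a ratio of -0.72 (-0.80 to -0.63). Spiny projection neuron-like nuclei had 498 and 336, a ratio of -0.57 (-0.60 to -0.53). Control levels thus differed between the neuron classes while the MIP levels lay close together. The ratio was below 0, with its interval, in each of the 11 neuron clusters that made up these classes, from -0.97 to -0.45.

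Outside the neurons the sums moved less or the other way. Oligodendrocyte precursor-like nuclei had 773 CPM in control and 1022 in MIP, a ratio of 0.40 (0.33 to 0.48). Without removal of doublets that ratio was 0.21. Differentiating oligodendrocyte-like nuclei had 668 and 731, with an interval that included 0. Astroglia-like nuclei had 1155 and 1055, a ratio of -0.13 (-0.18 to -0.079), which was -0.034 after TMM scaling, a scaling to the bulk of genes. The remaining classes were lower in MIP, with neuroblast-like nuclei at 585 and 506, cycling progenitor-like nuclei at 647 and 469, and microglia-like nuclei at 617 and 463. Their ratios were -0.21 (-0.31 to -0.11), -0.46 (-0.67 to -0.27) and -0.41 (-0.59 to -0.24). TMM scaling added 0.13 to the spiny projection neuron-like ratio and -0.011 to the cycling progenitor-like ratio, which reversed the order of these classes. The smaller microglia-like cluster, of 43 control and 19 MIP nuclei, had a ratio of -1.06 (-1.76 to -0.42). Over all nuclei together the sum was 618 and 411, a ratio of -0.59, but this pool also reflects the different mix of classes in the libraries.

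**Figure D2:**
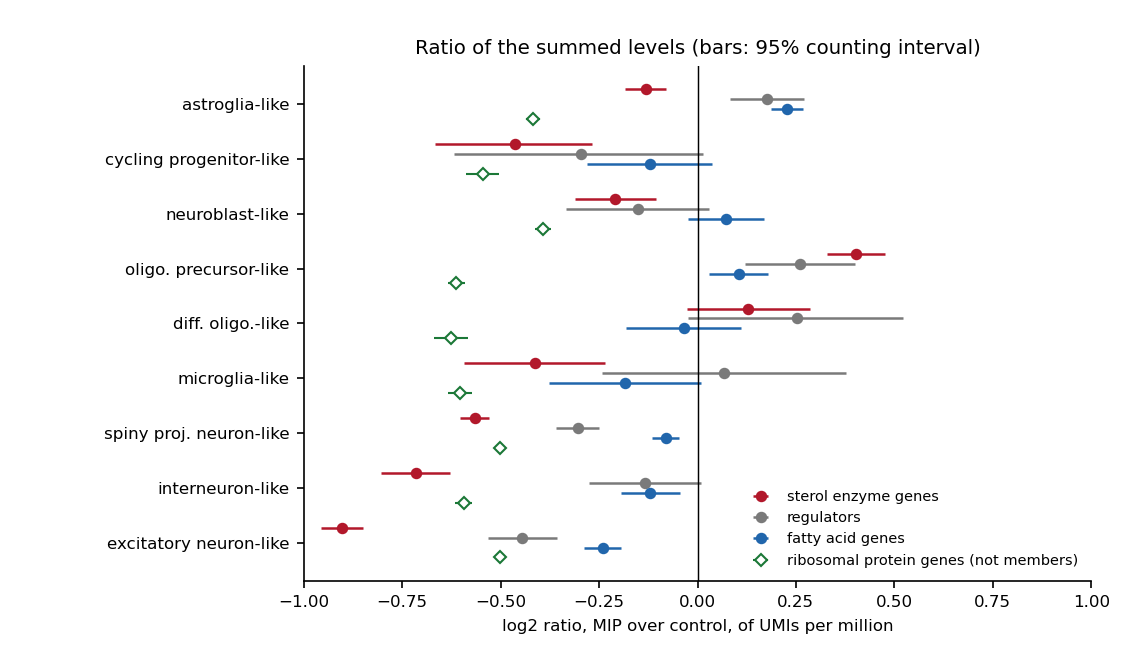
Log2 ratio of MIP over control (x axis) of the summed level of the sterol enzyme genes (red), regulators (grey) and fatty acid genes (blue) in each class (y axis), with the 81 ribosomal protein genes, which are no members, as green diamonds and bars for the 95% counting interval. Oligodendrocyte precursor-like nuclei have a sterol ratio of 0.40 and the 3 neuron classes lie between -0.90 and -0.57, while the fatty acid ratios lie between -0.24 and 0.23, of which those of spiny projection neuron-like, interneuron-like and differentiating oligodendrocyte-like nuclei change sign with the scaling.

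Counted one by one at a ratio of at least 1.5, over genes with at least 20 UMIs, more sterol enzyme genes were lower in the neuron classes than the share of all genes. Excitatory neuron-like nuclei had 12 of 18 lower in MIP and 0 higher, where 17.3% of all genes tested were lower and 4.19% higher. Their median log2 ratio was -1.02, against -0.15 over all genes. In interneuron-like nuclei 12 of 18 were lower and 0 higher, beside 17.1% and 3.67% of all genes, with a median of -0.71 against -0.12. Spiny projection neuron-like nuclei had 7 of 18 lower and 0 higher, beside 16.3% and 3.37%, and medians of -0.51 and -0.15. All 18 were below 0 in the first 2 classes, but Ebp in excitatory neuron-like nuclei changed sign with both other scalings, as did Pmvk and Sc5d in interneuron-like nuclei when scaled to genes under 30 kb. In the last class 17 of 18 were below 0 under each scaling, and Dhcr7 was at 24.3 and 26.1 CPM. At a ratio of at least 2, 5 members remained lower in interneuron-like nuclei and 0 in spiny projection neuron-like nuclei. The shares of all genes were not counted at that ratio.

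Among oligodendrocyte precursor-like nuclei 4 of 18 sterol enzyme genes were higher in MIP and 2 lower, where 4.21% of all genes were higher and 15.4% lower. Their median was 0.41, against -0.11 over all genes. Astroglia-like nuclei had 0 higher and 2 lower, beside 4.89% and 15.5% of all genes, so that the count was no larger than the share of all genes. The same held in neuroblast-like nuclei, with 0 higher and 1 lower beside 6.66% and 14.7%. Cycling progenitor-like nuclei had 0 higher and 7 of 18 lower, beside 8.72% and 17.3%. Only 4 were lower among genes with at least 60 UMIs, a minimum at which the shares of all genes were not counted. Differentiating oligodendrocyte-like nuclei had 2 higher and 1 lower, beside 8.70% and 16.8%, and microglia-like nuclei 0 higher and 4 of 15 lower, beside 12.1% and 22.2%. Over all nuclei 8 of 18 were lower and 0 higher, beside 20.9% and 2.90% of all genes.

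**Figure D3:**
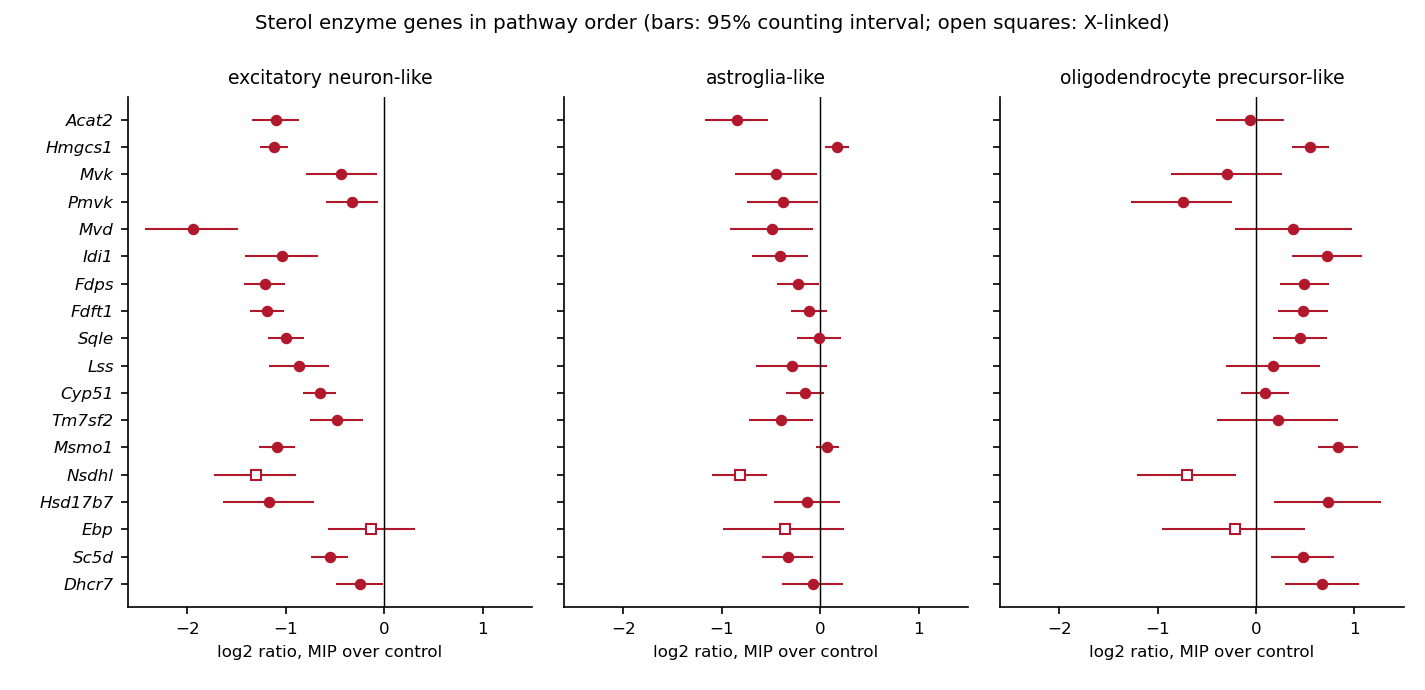
Log2 ratio of MIP over control (x axes) of each of the 18 sterol enzyme genes in pathway order (y axis) in excitatory neuron-like, astroglia-like and oligodendrocyte precursor-like nuclei, with bars for the 95% counting interval and open squares for the X-linked Nsdhl and Ebp. In excitatory neuron-like nuclei 17 of 18 intervals lie below 0. In astroglia-like nuclei 9 lie below 0 and that of Hmgcs1 above. In oligodendrocyte precursor-like nuclei 9 lie above 0 and 2 below. Such intervals were not counted over all genes, so these numbers do not set the sterol enzyme genes apart from other genes.

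The first steps lead from acetyl-CoA to mevalonate and its phosphates. Hmgcs1, which joins acetoacetyl-CoA with acetyl-CoA, was at 97.9 CPM in control and 45.2 in MIP excitatory neuron-like nuclei, a ratio of -1.12 (-1.26 to -0.97). In interneuron-like nuclei it was at 86.3 and 44.4, a ratio of -0.96. In spiny projection neuron-like nuclei it was at 83.7 and 46.3, a ratio of -0.86. The MIP levels of the 3 neuron classes thus lay close together, below each of their control levels. Hmgcs1 was higher in MIP oligodendrocyte precursor-like nuclei, at 118 and 173, a ratio of 0.55 (0.37 to 0.74). In astroglia-like nuclei it was at 189 and 212, a ratio of 0.17 (0.048 to 0.29). Acat2, the thiolase that supplies acetoacetyl-CoA, was lower in MIP both in excitatory neuron-like nuclei, at 34.6 and 16.2, and in astroglia-like nuclei, at 45.2 and 25.1. Acat2 had a ratio below 0 in all 9 classes, from -1.10 to -0.019, though both other scalings turned its sign in oligodendrocyte precursor-like and microglia-like nuclei.

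Mvk and Pmvk, the kinases that phosphorylate mevalonate, had ratios nearer 0 in excitatory neuron-like nuclei. Mvk was at 11.8 and 8.69 CPM in excitatory neuron-like nuclei, a ratio of -0.44. Pmvk was at 20 and 15.9 there, a ratio of -0.33, and at 27.9 and 16.7 in oligodendrocyte precursor-like nuclei, a ratio of -0.75 (-1.27 to -0.24). Pmvk and Nsdhl were the 2 sterol enzyme genes whose interval lay below 0 in the precursors. Mvd, the decarboxylase that makes isopentenyl diphosphate, had the lowest ratio of any sterol enzyme gene in excitatory neuron-like nuclei, at 14.3 and 3.702, or -1.95 (-2.43 to -1.49), from 187 and 49 UMIs. In interneuron-like nuclei it was at 11.8 and 4.31, a ratio of -1.45.

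The isoprenoid steps come next. Idi1, the isomerase of isopentenyl diphosphate, was at 16.9 CPM in control and 5.54 in MIP interneuron-like nuclei, a ratio of -1.61 (-2.29 to -0.98) from 95 and 27 UMIs. Oligodendrocyte precursor-like nuclei had 30.8 and 50.7, a ratio of 0.72 (0.36 to 1.08). Fdps, which makes farnesyl diphosphate, was at 49.1 and 21.1 in excitatory neuron-like nuclei, a ratio of -1.21. It was at 50.8 and 24.4 in interneuron-like nuclei. In microglia-like nuclei, its highest class in the control, Fdps was at 96.97 and 51.8, a ratio of -0.90 (-1.43 to -0.40).

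Squalene is the first product committed to sterols. Fdft1, which makes it, was at 67.1 CPM in control and 29.4 in MIP excitatory neuron-like nuclei, a ratio of -1.19 (-1.37 to -1.02). Sqle, the epoxidase that follows, was at 55.3 and 27.6 there, a ratio of -0.999. Lss, which closes the sterol rings, was at 19.7 and 10.8, a ratio of -0.87. In oligodendrocyte precursor-like nuclei Fdft1 was at 65.6 and 91.6 and Sqle at 57.4 and 78.1, ratios of 0.48 and 0.44 with intervals above 0. Lss was at 21.5 and 24.3, with an interval that included 0. In astroglia-like nuclei the intervals of all 3 included 0, and Sqle was at 63.4 and 62.9.

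Of the enzymes that turn lanosterol into cholesterol, Msmo1, the methyl oxidase, differed in both directions between the libraries. It was at 92.5 CPM in control and 165 in MIP oligodendrocyte precursor-like nuclei, a ratio of 0.83 (0.63 to 1.04). In cycling progenitor-like nuclei it was at 67.2 and 31, a ratio of -1.12 (-1.94 to -0.37) from 114 and 17 UMIs. Excitatory neuron-like nuclei had 61.5 and 28.9, a ratio of -1.09. Neuroblast-like nuclei lay between, at 39.2 and 23.8, a ratio of -0.72 (-1.20 to -0.26), and in astroglia-like nuclei, its highest class, Msmo1 was at 218 and 229 with an interval that included 0.

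Within the astroglia-like class the clusters were not alike. In the larger cluster, with 678 control and 745 MIP nuclei, Msmo1 was at 258 and 276 CPM. In the cluster whose leading genes were Gm29260 and Veph1, with 433 and 291 nuclei, it was at 171 and 99.7, a ratio of -0.78 (-1.12 to -0.45). The summed sterol ratio was -0.14 in the first and -0.61 in the second, and the next in size, of 49 and 25 nuclei, had -0.44.

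Nsdhl, which removes the oxidised methyl groups, had a ratio below 0 in all 9 classes, from -1.497 in interneuron-like to -0.38 in neuroblast-like nuclei. Its interval included 0 in cycling progenitor-like, neuroblast-like, differentiating oligodendrocyte-like and microglia-like nuclei. It was at 60.7 and 34.5 CPM in astroglia-like nuclei, a ratio of -0.82 (-1.10 to -0.54), and at 28.7 and 17.7 in oligodendrocyte precursor-like nuclei, where the summed sterol level was higher. Nsdhl is X-linked, and its difference cannot be told apart from sex. Leaving out Nsdhl and Ebp, the other X-linked member, moved no summed ratio beyond its counting interval. Cyp51, the lanosterol demethylase, was at 58.2 and 36.9 in excitatory neuron-like nuclei, a ratio of -0.66, and at 79.7 and 85.03 in oligodendrocyte precursor-like nuclei, with an interval that included 0. Dhcr7, the reductase of the last step, was at 29.2 and 46.5 in the latter, a ratio of 0.67 (0.30 to 1.04).

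Hsd17b7, the sterol ketoreductase, and Sc5d, the desaturase near the end of the pathway, were higher in MIP in both oligodendrocyte classes. In differentiating oligodendrocyte-like nuclei Hsd17b7 was at 17.5 and 41.3 CPM, a ratio of 1.24 (0.42 to 2.06) from 26 and 29 UMIs. Sc5d was at 24.9 and 51.3 there, a ratio of 1.04 (0.34 to 1.74), and at 41.8 and 57.96 in the precursors. Both were lower in MIP excitatory neuron-like nuclei, at 9.85 and 4.38 for Hsd17b7 and at 45.7 and 31.1 for Sc5d. Tm7sf2, a sterol reductase, was at 20.9 and 14.96 in excitatory neuron-like nuclei. Ebp, the sterol isomerase, was the one sterol enzyme gene whose interval included 0 there, at 6.95 and 6.35.

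**Figure D4:**
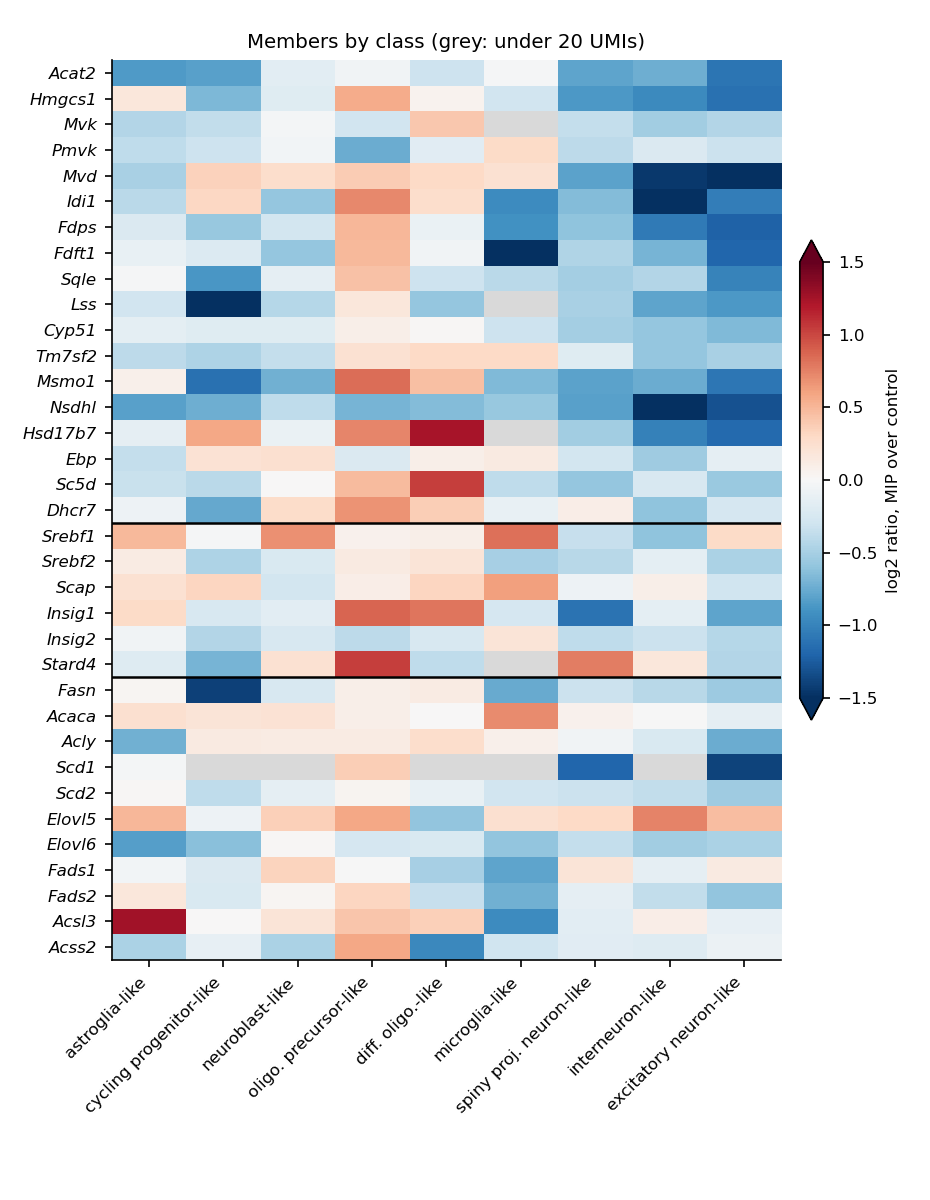
Log2 ratio of MIP over control (colour, from blue for lower to red for higher in MIP, cut at -1.5 and 1.5) of each of the 35 members (y axis) in 9 classes (x axis), with grey where a member had under 20 UMIs over both libraries and black lines between the sterol enzymes, regulators and fatty acid genes. The sterol block is blue in the 3 neuron columns except for Dhcr7 in spiny projection neuron-like nuclei, with Ebp, Pmvk and Sc5d turning sign in 1 neuron class each under other scalings, and mostly red in the oligodendrocyte precursor column, and the Acsl3 square of the astroglia-like column stands at 1.25.

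In the neuron classes and in oligodendrocyte precursor-like nuclei the summed ratio of the regulators lay nearer 0 than that of the sterol enzymes. Their sum was 229 CPM in control and 275 in MIP oligodendrocyte precursor-like nuclei, a ratio of 0.26, and 319 and 361 in astroglia-like nuclei, a ratio of 0.18. It was 191 and 140.1 in excitatory neuron-like nuclei, a ratio of -0.44, and spiny projection neuron-like nuclei had 199 and 161, a ratio of -0.30. In the other 5 classes the interval included 0. At 1.5-fold, 2 of 6 were higher and 0 lower in oligodendrocyte precursor-like nuclei, beside 4.21% and 15.4% of all genes, and 1 was higher and 1 lower in spiny projection neuron-like nuclei, beside 3.37% and 16.3%. In microglia-like nuclei 2 of 5 measured, Srebf1 and Scap, were higher and 0 lower, beside 12.1% and 22.2%, though the intervals of both included 0. In each of the other classes no more than 1 regulator passed in either direction.

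Srebf2, the main transcription factor of the sterol genes, was at 97.2 CPM in control and 70.1 in MIP excitatory neuron-like nuclei, a ratio of -0.47 (-0.60 to -0.35). In spiny projection neuron-like nuclei it was at 90.6 and 68.1, a ratio of -0.41. In oligodendrocyte precursor-like and astroglia-like nuclei its interval included 0. Srebf1 was higher in MIP astroglia-like nuclei, at 36.6 and 51.2, a ratio of 0.49 (0.22 to 0.75). Scap, the escort, was at 30.2 and 24.6 in excitatory neuron-like nuclei, and its interval included 0 in the 8 other classes.

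Insig1, which retains Scap and is itself a target of the pathway, was higher in MIP in both oligodendrocyte classes and lower in 2 neuron classes. It was at 31 CPM in control and 56.6 in MIP oligodendrocyte precursor-like nuclei, a ratio of 0.87 (0.52 to 1.22), and at 34.3 and 59.9 in differentiating oligodendrocyte-like nuclei. In spiny projection neuron-like nuclei it was at 13.7 and 6.37, a ratio of -1.10 (-1.37 to -0.85), and in excitatory neuron-like nuclei at 20.99 and 12.1. In interneuron-like nuclei it was at 14.98 and 13.55, with an interval that included 0 and a sign that changed with the scaling. In astroglia-like nuclei, whose summed sterol level was lower in MIP, it was at 68.7 and 84.1, a ratio of 0.29. Insig2, its paralog, was at 45.7 and 35.2 in spiny projection neuron-like nuclei, a ratio of -0.38.

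Stard4, a carrier of cholesterol between membranes, differed in direction between spiny projection neuron-like and excitatory neuron-like nuclei. It was at 7.79 CPM in control and 13.3 in MIP spiny projection neuron-like nuclei, a ratio of 0.77 (0.54 to 0.999), the highest of any member there. The ratio was above 0 in all 5 clusters of that class, from 0.45 to 1.48, with an interval above 0 in 3. Stard4 was at 10.8 and 7.93 in excitatory neuron-like nuclei, a ratio of -0.44, and its interval included 0 in interneuron-like nuclei. Oligodendrocyte precursor-like nuclei had 14.3 and 29.5, a ratio of 1.04 (0.54 to 1.55) from 56 and 85 UMIs.

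In the neuron classes and in oligodendrocyte precursor-like nuclei the fatty acid genes had summed ratios nearer 0 than the sterol enzyme genes, but not in astroglia-like nuclei. Their sum was 1599 CPM in control and 1872 in MIP astroglia-like nuclei, a ratio of 0.23 (0.19 to 0.27). It was 841 and 904 in oligodendrocyte precursor-like nuclei, a ratio of 0.10 (0.030 to 0.18), and 622 and 526 in excitatory neuron-like nuclei, a ratio of -0.24 (-0.29 to -0.19). In spiny projection neuron-like nuclei the sum was 459 and 434, a ratio of -0.081, which became 0.054 with TMM scaling. In interneuron-like nuclei it was 588 and 541, a ratio of -0.12, which became 0.13 when scaled to genes under 30 kb. Intervals included 0 in the remaining 4 classes. Of 11 fatty acid genes, 3 were lower past 1.5-fold in excitatory neuron-like and 1 in spiny projection neuron-like nuclei, beside 17.3% and 16.3% of all genes. Interneuron-like nuclei had 0 of 10 measured lower and 1 higher, beside 17.1% and 3.67%. The count was largest in microglia-like nuclei, with 5 of 10 lower and 1 higher beside 22.2% and 12.1% of all genes and a median of -0.44 against -0.11. Of those 5 only Fads1 and Acsl3 had an interval below 0, and the interval of Acaca, the 1 higher, lay above 0. Cycling progenitor-like nuclei had 2 of 10 lower and 0 higher, beside 17.3% and 8.72%. Differentiating oligodendrocyte-like nuclei had 2 of 10 lower and 0 higher, beside 16.8% and 8.70%, so that both counts of lower genes were near the shares of all genes. In astroglia-like nuclei 1 was higher and 2 were lower, counts near the shares of all genes given above. Scd1 was measured in 4 of 9 classes only, and had 5 and 0 UMIs in differentiating oligodendrocyte-like nuclei.

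Acsl3, which activates long-chain fatty acids for lipid synthesis, stood out in astroglia-like nuclei. It was at 191 CPM in control and 456 in MIP, a ratio of 1.25 (1.15 to 1.36). It was at 203 and 455 in the larger astroglial cluster and at 201 and 531 in the one with Gm29260 and Veph1. In microglia-like nuclei it was lower in MIP, at 45.98 and 23.8, a ratio of -0.95 (-1.74 to -0.20). It was at 38.01 and 34.9 in excitatory neuron-like nuclei, with an interval that included 0. With members under 30 kb alone, which are Fasn, Scd1, Scd2 and Fads1 among the fatty acid genes, the astroglial fatty acid ratio was 0.0035. Without Acsl3 the other 10 fatty acid genes summed to 1408 and 1416 CPM in astroglia-like nuclei, a ratio of 0.0083 (-0.038 to 0.055).

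Other fatty acid genes went both ways in astroglia-like nuclei. Elovl6, the elongase of saturated fatty acids, was at 128 CPM in control and 71.7 in MIP, a ratio of -0.83 (-1.02 to -0.64). Acly, which makes cytosolic acetyl-CoA from citrate, was at 52.8 and 32.1, a ratio of -0.72. Acss2 was at 124 and 89.4, a ratio of -0.47. Acaca, the carboxylase that makes malonyl-CoA, was higher in MIP, at 363 and 430.5, a ratio of 0.25 (0.16 to 0.33). Fasn, the synthase that uses it, was at 47.3 and 48.4, and Scd2, a desaturase, at 288 and 291, with intervals that included 0. The Elovl6 difference was seen in the larger astroglial cluster, at 158 and 74.6, while the interval of the cluster with Gm29260 and Veph1 included 0.

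Elovl5, the elongase of polyunsaturated fatty acids, was higher in MIP in all 3 neuron classes, in astroglia-like and in oligodendrocyte precursor-like nuclei. It was at 21.1 CPM in control and 35.1 in MIP interneuron-like nuclei, a ratio of 0.74 (0.39 to 1.09). Excitatory neuron-like nuclei had 26.03 and 35.9, a ratio of 0.46, and 32.03 and 39.5 CPM were counted in spiny projection neuron-like nuclei, a ratio of 0.30. In astroglia-like nuclei it was at 52.9 and 74.8, a ratio of 0.50, and in oligodendrocyte precursor-like nuclei at 29.98 and 44.8, a ratio of 0.58 (0.21 to 0.95). The ratio was above 0 in 7 of 9 classes. Elovl6 had the opposite sign, with a ratio below 0 in 8 of 9 classes, at 92.9 and 66.8 in excitatory neuron-like nuclei.

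Of the fatty acid desaturases, Fads2, Scd1 and Scd2 were lower in MIP excitatory neuron-like nuclei, as was citrate lyase. Fads2 was at 34.9 and 23.2 CPM, a ratio of -0.59, while Fads1, the other desaturase of polyunsaturated fatty acids, was at 23.4 and 25.6 with an interval that included 0. Scd1 was at 3.36 and 1.28, from 44 and 17 UMIs. Acly was at 40.6 and 24.2, a ratio of -0.74, and Fasn at 22.7 and 15.6, a ratio of -0.54. Acaca stayed close, at 249 and 228, a ratio of -0.13 whose sign changed with both other scalings. In oligodendrocyte precursor-like nuclei Acss2 was higher in MIP, at 27.2 and 40.6, and Acaca was at 251 and 267 with an interval that included 0. In neuroblast-like nuclei Acaca was at 136 and 158 and Fads1 at 48.9 and 61.5, with intervals just above 0.

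Set against each other within a class, the sterol and fatty acid genes parted in most classes. The sterol ratio minus the fatty acid ratio was -0.66 (-0.73 to -0.59) in excitatory neuron-like, -0.60 (-0.71 to -0.48) in interneuron-like and -0.49 (-0.54 to -0.44) in spiny projection neuron-like nuclei. In UMIs, excitatory neuron-like nuclei held 100.4 sterol enzyme UMIs per 100 fatty acid UMIs in control and 63.5 in MIP. The difference was -0.36 (-0.43 to -0.29) for astroglia-like, -0.34 (-0.60 to -0.089) for cycling progenitor-like and -0.28 (-0.42 to -0.14) for neuroblast-like nuclei. Oligodendrocyte precursor-like nuclei had a difference of the other sign, 0.30 (0.19 to 0.40), or 91.95 and 113 sterol UMIs per 100. In the other 2 classes the interval included 0. This contrast does not depend on the scaling of a library. It did depend on which genes entered it: with members under 30 kb only, which leaves 4 of the 11 fatty acid genes, it was -0.48, -0.41 and -0.39 in the neuron classes in the order given, but -0.10 for astroglia-like and -0.082 for cycling progenitor-like nuclei. Without Acsl3 it was -0.14 for astroglia-like nuclei.

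Gene length and short, abundant transcripts also differed between the libraries. The sterol enzyme genes span 5.55 to 39.96 kb, with a median of 16.2 kb, and the fatty acid genes 13.2 to 272 kb, with a median of 49.9 kb. In excitatory neuron-like nuclei the median ratio of all genes under 30 kb was -0.24 and that of longer genes -0.044. Oligodendrocyte precursor-like nuclei had -0.21 and -0.0030. The 81 ribosomal protein genes, which are short, were lower in MIP in each class, at -0.50 in excitatory neuron-like, -0.59 in interneuron-like, -0.50 in spiny projection neuron-like and -0.61 in oligodendrocyte precursor-like nuclei, where the sterol enzymes were higher. Scaled to the UMIs of genes under 30 kb, the sterol ratio was -0.70, -0.47 and -0.41 in the neuron classes and 0.51 in oligodendrocyte precursor-like nuclei.

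Markers of other cell types moved with the libraries too. All 12 astroglial markers were detected in each neuron class, and their sum was lower in MIP. It was 458 and 379 CPM in excitatory neuron-like, 529 and 419.7 in spiny projection neuron-like and 293 and 223 in interneuron-like nuclei, against 7993 and 10010 in astroglia-like nuclei. In oligodendrocyte precursor-like nuclei it was 682 and 623. Border macrophage markers in microglia-like nuclei summed to 178 and 649, with Lyve1 at 0 in at least 1 library. The part of these values, of gene length and of depth in the results above was not tested.

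The genes of 4 neighbouring lipid lists, 80 in all, were counted in the same way. Of the genes of sterol efflux, storage and turnover, 0 of 17 were higher and 1 lower past 1.5-fold in excitatory neuron-like nuclei. The shares of all genes were 4.19% and 17.3%, and the medians -0.20 against -0.15 over all genes. Astroglia-like nuclei had 2 of 17 higher and 1 lower, beside 4.89% and 15.5%, at a median of 0.022 against -0.12. Abca1, which exports cholesterol from cells, was at 332 CPM in control and 550 in MIP astroglia-like nuclei, a ratio of 0.73. In neuroblast-like nuclei it was at 59.4 and 128, a ratio of 1.11. Abcg1, a second exporter, was at 39.2 and 74.97 in oligodendrocyte precursor-like nuclei and at 146 and 382 in microglia-like nuclei, ratios of 0.94 and 1.39. Cyp46a1, the neuronal cholesterol hydroxylase, was at 22.2 and 10.9 in neuroblast-like nuclei.

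Among the genes of fatty acid oxidation and ketone bodies, astroglia-like nuclei had 4 of 29 higher and 2 lower, at a median of 0.12 against -0.12, beside 4.89% and 15.5% of all genes. In the neuron classes 7 of 25 were lower and 0 higher in excitatory neuron-like nuclei, beside 17.3% and 4.19% of all genes, with a median of -0.27 against -0.15. Interneuron-like nuclei had 6 of 22 lower and spiny projection neuron-like nuclei 8 of 26, beside 17.1% and 16.3%, with medians of -0.15 against -0.12 and -0.13 against -0.15. Ppard, a nuclear receptor for fatty acids, was at 32.1 CPM in control and 60.3 in MIP astroglia-like nuclei. Etfb, which passes electrons from fatty acid oxidation to the respiratory chain, was at 16.1 and 9.31 there. Of the other fatty acid synthesis genes, 6 of 23 were lower and 1 higher in interneuron-like nuclei, beside 17.1% and 3.67% of all genes. Their median was -0.30 against -0.12. Excitatory neuron-like nuclei had 5 of 24 lower and 3 higher, beside 17.3% and 4.19%, with a median of -0.21 against -0.15. In this list Acsl1, a relative of Acsl3, was at 51.3 and 84.4 in excitatory neuron-like and at 46 and 74.1 in spiny projection neuron-like nuclei, ratios of 0.72 and 0.69. Elovl2, an elongase of long polyunsaturated fatty acids, was at 12.8 and 25.5 in the latter, a ratio of 0.99. Slc25a1, the mitochondrial citrate carrier, was at 12.8 and 6.27 in excitatory neuron-like nuclei. The isoprenoid branches, which leave the pathway before squalene, had 0 of 6 genes past 1.5-fold in excitatory neuron-like nuclei, with a median of -0.13 against -0.15 over all genes, and 0 of 6 in oligodendrocyte precursor-like nuclei.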

How the data were processed

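Single-nucleus RNA was counted in 1 control and 1 MIP library, grouped by the labels. What the authors deposited are unnormalised UMI counts for each gene in each barcode; Cell Ranger 5.0.1 and the build mm10 are named in the submitters' processing notes. Barcodes under 500 genes or over 5% mitochondrial UMIs were left out, as was the top Scrublet-scored share of 0.8% per 1000 barcodes, 2271 control and 1174 MIP, because the automatic threshold of Scrublet marked 0 in both libraries. Nuclei were clustered with Scanpy 1.11.5 and leidenalg 0.10.2 (3000 variable genes without the members and the other lipid genes, 40 components, 20 neighbours, resolution 1). Clusters were named from markers, and 12 of 40 stayed unnamed. UMIs were summed per class, with exact Poisson and conditional binomial intervals from SciPy 1.17.1 and TMM factors from edgeR 4.0.16. The calculation of the intervals was checked on simulated Poisson counts, the same model that the intervals assume. Such counts hold no spread between nuclei or animals, so the check says nothing of that spread here. Depth per class ran from 548315 UMIs, in MIP cycling progenitor-like nuclei, to 37741653, in control spiny projection neuron-like nuclei, and sets the width of each interval.

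All members could be named. Those given first in a class reached 60 UMIs in 1 library and had the interval bounds farthest from 0, 5 in each direction, or 2 in each other lipid list. The members and lists were chosen with earlier results of these data known. Alternatives were TMM scaling, nuclei thinned to 2000 UMIs, no doublet removal, classes from marker scores, leaving out the most abundant member, and other minimum UMIs and ratios. Leaving out the X-linked members, leaving out Acsl3, scaling to genes under 30 kb and keeping only members under 30 kb were chosen after seeing the data. Promoter windows were matched by symbol for 28 of 35 members.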

Additional observations from a re-analysis of the deposited data

Results flagged for a closer look

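Ratios of opposite sign in 2 classes, each with a counting interval on its own side of 0, drew attention to 7 results. Only the 7 classes compared most closely were searched, and single members only in classes where they were among those given first. Other members had such intervals too. Fdps, Fdft1, Sqle, Hsd17b7, Sc5d, Dhcr7 and Stard4, for example, lay above 0 in oligodendrocyte precursor-like and below 0 in excitatory neuron-like nuclei. With 1 library per group the difference between the classes was not tested in any of them. The summed sterol enzyme ratio was 0.40 in oligodendrocyte precursor-like and -0.90 in excitatory neuron-like nuclei. The summed fatty acid ratio was 0.23 in astroglia-like and -0.24 in excitatory neuron-like nuclei. Without Acsl3 these became 0.0083 and -0.25. The sterol minus fatty acid difference was 0.30 in oligodendrocyte precursor-like and -0.66 in excitatory neuron-like nuclei. Among single members, Hmgcs1 had 0.55 in oligodendrocyte precursor-like and -1.12 in excitatory neuron-like nuclei, and Idi1 had 0.72 in the precursors and -1.61 in interneuron-like nuclei. Insig1 had 0.87 in the precursors and -1.10 in spiny projection neuron-like nuclei, and Msmo1 had 0.83 in the precursors and -1.12 in cycling progenitor-like nuclei.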

How the results depend on the processing

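Ratios are log2 of MIP over control, and a value counted as moved where it left the 95% counting interval of the reported one. For the summed ratios of the 7 classes compared most closely, TMM scaling moved the sterol ratio to -0.034 in astroglia-like, 0.50 in oligodendrocyte precursor-like, -0.43 in spiny projection neuron-like, -0.61 in interneuron-like and -0.75 in excitatory neuron-like nuclei, and the fatty acid ratio to 0.33, 0.20, 0.054 (reversed), -0.019 and -0.086 in the same order. This scaling adds 0.18 over all nuclei, 0.15 in excitatory neuron-like and 0.13 in spiny projection neuron-like nuclei to every gene. Scaling to genes under 30 kb, chosen after seeing the data, gave sterol ratios of 0.51 (oligodendrocyte precursor-like), -0.41 (spiny projection neuron-like), -0.47 (interneuron-like) and -0.70 (excitatory neuron-like), and fatty acid ratios of 0.21, 0.076 (reversed), 0.13 (reversed) and -0.035 in that order and 0.27 in astroglia-like nuclei. Members under 30 kb alone, also chosen after seeing the data, gave fatty acid ratios of 0.0035 (astroglia-like), -0.40 (cycling progenitor-like), -0.18 (spiny projection neuron-like), -0.29 (interneuron-like) and -0.38 (excitatory neuron-like), and sterol minus fatty acid differences of -0.10, -0.082, -0.39, -0.41 and -0.48. Thinned nuclei gave sterol ratios of -0.19 in astroglia-like and -0.52 in spiny projection neuron-like nuclei and a fatty acid ratio of -0.0085 in the latter. Without doublet removal the oligodendrocyte precursor-like sterol ratio was 0.21 and the difference 0.13, and the astroglia-like fatty acid ratio 0.19. Classes from marker scores gave a sterol ratio of -0.25 in cycling progenitor-like and -0.53 in neuroblast-like nuclei, and in the latter a fatty acid ratio of -0.065 and a difference of -0.46. Without the most abundant member the spiny projection neuron-like sterol ratio was -0.51, the fatty acid ratios -0.14, -0.20 and -0.32 and the differences -0.37, -0.48 and -0.55 in spiny projection neuron-like, interneuron-like and excitatory neuron-like nuclei. Among single members, Acsl3 in differentiating oligodendrocyte-like nuclei changed sign with marker scores, to -0.0069. Leaving out Nsdhl and Ebp moved none of these. Leaving out Acsl3, chosen after seeing the data, moved the fatty acid ratio to 0.0083 and the difference to -0.14 in astroglia-like nuclei, and neither beyond its interval in the other 8 classes. The cause of the other changes was not tested.

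No paired analysis was possible because each group was 1 library, and no library could be left out for the same reason. At a ratio of 2, 16 of 36 counts of members moved by over 1.5 times, with 60 UMIs 8, with TMM scaling 5, and with 1 UMI in each library 3. Depth limits the cycling progenitor-like and microglia-like values most, where single members rest on few UMIs.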
